A study of Mus musculus with 12 samples.

Results

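The interstitial matrix module is a list of 40 genes for the proteins that fibroblasts secrete between cells and for the enzymes that remodel them. Members were found by gene symbol in the processed table, and 39 of the 40 were found among 15156 named genes; the proteoglycan gene Lum was not analysed here. The 39 comprise 12 collagen genes, 4 proteoglycan genes, 11 genes of elastic fibres and their crosslinking, 7 genes of fibronectin and matricellular proteins, and 5 genes of matrix proteases and their inhibitors. All 39 passed the filter on low counts and were tested among 14392 genes. Dcn, Prelp, Eln, Mfap2, Mfap5 and Tnn were at or below 1.04 CPM (counts per 1000000 counts of a library) in every library of the line labelled KO, and they entered the test through the wild-type libraries in which they were higher.

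In connective tissue, collagen I and III fibres nucleate on collagen V and carry the load, while collagen VI forms a beaded network and collagens XII and XVI sit on the fibre surface. Small leucine-rich proteoglycans such as decorin coat the fibres and control their thickness. Elastic fibres are elastin cores on fibrillin microfibrils, assembled with fibulins and crosslinked by lysyl oxidases. Matricellular proteins such as tenascins and thrombospondins change how cells attach and signal. The membrane protease MT1-MMP, encoded by Mmp14, cleaves collagen and activates the secreted gelatinase MMP2, and the tissue inhibitors of metalloproteinases (TIMPs) hold these enzymes in check.

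RNA was sequenced from mouse embryonic fibroblasts that carry the E6 protein of a human papillomavirus, which targets p53 for degradation, as do all groups below. The groups were a single line of genotype p27-/- (KO, n = 4 libraries), the wild-type line WT clone2 (n = 4) and the wild-type line WT clone1 (n = 4), each sampled in experiments 1 to 4 after 24 h of growth in DMEM with 10% serum. p27 holds back cyclin-dependent kinases and is the product of Cdkn1b. The genotype p27-/- is represented by 1 line, so genotype and line cannot be told apart. Nothing states that the experiments were independent cultures, and p-values therefore weigh differences against variation among these samples only, part of which may be technical.

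Cdkn1b stood at 83.7, 114, 118 and 98.2 CPM in the KO libraries, at 92.7, 120, 92.9 and 88.6 CPM in WT clone2 and at 86.8, 89.2, 92.3 and 101 CPM in WT clone1 (experiments 1 to 4). The groups overlapped (edgeR adjusted p 0.499 against the wild-type lines pooled), so the transcript does not check the genotype, and the labels do not say which part of the gene is deleted; the 4 libraries are called KO-labelled below. Named genes took 15425327 to 23982524 counts per library. All 8 fibroblast markers averaged over 1 CPM in each line, with a summed level of 6210 to 7540 CPM in KO-labelled, 4960 to 5710 in WT clone2 and 4570 to 5540 in WT clone1 libraries, while epithelial markers summed to at most 1.71 CPM and no skeletal muscle marker was listed. Most of the fibroblast sum was Vim, with means of 5010, 2760 and 3430 CPM in that order of lines, whereas Prrx1 averaged 330, 829 and 502 CPM, Twist1 49, 192 and 56.5 CPM and Pdgfra 88.7, 261 and 86.1 CPM. Smooth muscle and pericyte markers (5 of 6 listed) summed to 2820 to 5420 CPM in KO-labelled, 2930 to 6400 in WT clone2 and 3030 to 4150 in WT clone1 libraries, most of it Acta2; Cnn1 averaged 110, 291 and 140 CPM and Myh11 0.561, 11.8 and 3.53 CPM. Cartilage markers summed to 24.3 to 29.7 CPM in KO-labelled, 20.4 to 27.9 in WT clone2 and 105 to 166 in WT clone1 libraries (5 of 7 markers listed); Col2a1 averaged 0.0907, 0.952 and 46.4 CPM and Sox9 24.7, 19.6 and 79.9 CPM in that order of lines. Bone markers (2 of 6 listed) summed to 2.64 to 4.65 CPM in KO-labelled, 7.52 to 11 in WT clone2 and 1.20 to 3.06 in WT clone1 libraries, and endothelial markers (3 of 7) to 0.516 to 2.19, 0.343 to 0.621 and 5.81 to 15.8 CPM. Xist, transcribed from an inactive X chromosome, averaged 0.0901 CPM in KO-labelled, 740 in WT clone2 and 716 in WT clone1 libraries, and the Y-linked Ddx3y averaged 44.3, 0.0628 and 0 CPM in the same order of lines. Xist and Ddx3y set the KO-labelled line apart from both wild-type lines. That difference and genotype therefore cannot be told apart in any comparison of the KO-labelled line, the X-linked members Bgn and Timp1 included. The part of the other line differences in the results was not tested. The KO-labelled and WT clone1 libraries of experiment 1 stood apart from the other libraries of their lines in the same way (r = 0.792 between their deviations from the line means, over all genes), and calls lost or gained without them are named beside each gene.

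The module was a large part of each transcriptome. Its 39 genes took 3.42 ± 0.482% of counts in KO-labelled libraries, 4.04 ± 0.768% in WT clone2 and 4.32 ± 0.581% in WT clone1 (SD, n = 4 each). The ranges were 2.80 to 3.92%, 3.51 to 5.18% and 3.79 to 5.08% in that order, so the lines overlapped. Col1a1 and Col1a2, the chains of collagen I, alone took 0.926 ± 0.123% in KO-labelled, 1.38 ± 0.162% in WT clone2 and 0.923 ± 0.184% in WT clone1 libraries. Per kilobase of the canonical transcript, the scale on which genes are compared with each other, biglycan (Bgn) led in the KO-labelled line with 1200 ± 173 CPM per kb. Sparc (929 ± 190), Col1a1 (858 ± 158), Col1a2 (816 ± 83.0) and Fn1 (597 ± 108 CPM per kb) came next there, and neighbours among these 5 overlapped within 1 SD except Fn1 and Col1a2. In WT clone2 the same 5 genes led, with Bgn at 1260 ± 239, Col1a1 at 1260 ± 182, Col1a2 at 1180 ± 176, Sparc at 735 ± 181 and Fn1 at 555 ± 126 CPM per kb. In WT clone1 thrombospondin 1 (Thbs1) was second at 1010 ± 298 CPM per kb, after Bgn at 1160 ± 123 and before Col1a1 at 913 ± 218, and these 3 overlapped within 1 SD. At the low end of the KO-labelled order were Mfap5, Mfap2, Tnn, Dcn, Eln and Prelp, all at or below 0.173 CPM per kb.

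Against WT clone2, 6 of 39 members rose and 17 fell in the KO-labelled libraries at an edgeR adjusted p below 0.05, where 19.2% of all genes tested rose and 19.2% fell. Against WT clone1, 6 rose and 13 fell, against a background of 16.8% higher and 19.3% lower. With the experiment number as a block, which was taken to pair these lines, 9 rose and 17 fell, beside 3042 and 3287 of all 14392 genes. Against the wild-type lines pooled (8 libraries, with their mutual difference counted as spread), 2 rose and 10 fell, against 8.47% and 10.3% of all genes. These 3 comparisons share the KO-labelled libraries. Called members were 59.0% of 39 against WT clone2 (all genes 38.4%), 48.7% against WT clone1 (36.1%) and 30.8% against the pooled lines (18.8%). The median log2 fold change over the members was -0.34, -0.09 and -0.26 in these comparisons, beside -0.02, -0.01 and -0.03 over all genes tested. All 4 KO-labelled libraries lay below all 8 wild-type libraries for 7 members (7.3% of all genes) and above them for 1 member (6.57%, and 13.9% of all genes either way). They lay above every WT clone2 library for 5 members and below for 18, beside 18.4% and 19.7% of all genes (38.1% either way), and above every WT clone1 library for 5 and below for 11, beside 15.4% and 17.8% (33.3% either way). The 7 members below all 8 wild-type libraries included Dcn, Prelp, Eln and Mfap2, which passed the low-count filter through those libraries. Their fall, here and in the counts of calls, is not independent of that filter.

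The wild-type lines also differed from each other. In WT clone2 12 members were higher and 11 lower than in WT clone1, beside 20.7% and 21.9% of all genes, so that 59.0% of the members and 42.6% of all genes separated lines of the same genotype. With the experiment number as a block 14 members were higher and 13 lower, beside 3659 and 3600 of all genes. All WT clone2 libraries were above WT clone1 for 10 members and below for 5, beside 20.5% and 20.4% of all genes (40.8% either way). A limma-voom fit of KO-labelled against wild-type libraries with the line as a random block (correlation within a line 0.508) called 0 members higher and 0 lower, with 2 and 6 at an unadjusted p below 0.05. The counts of members called moved by over 1.5 times without single libraries. Counts over all genes moved as well when each library was left out in turn. Genes lower ranged from 2223 to 2772 against WT clone2, from 964 to 1573 against the pooled lines and from 2779 to 3462 between the wild-type lines. Genes higher ranged from 1969 to 2659 against WT clone1 and from 898 to 1426 against the pooled lines. Against WT clone2 the lower members numbered 11 without KO-labelled library 2. Against WT clone1 the higher members numbered 3 without KO-labelled library 1 or 3, or WT clone1 library 2 or 4. Against the pooled lines the lower members numbered 6 without KO-labelled library 2 or 4, and the higher members 1 without KO-labelled library 3 or 4 and 4 without WT clone2 library 3. Between the wild-type lines the lower members numbered 7 without WT clone2 library 1 or WT clone1 library 3.

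**Figure D1:**
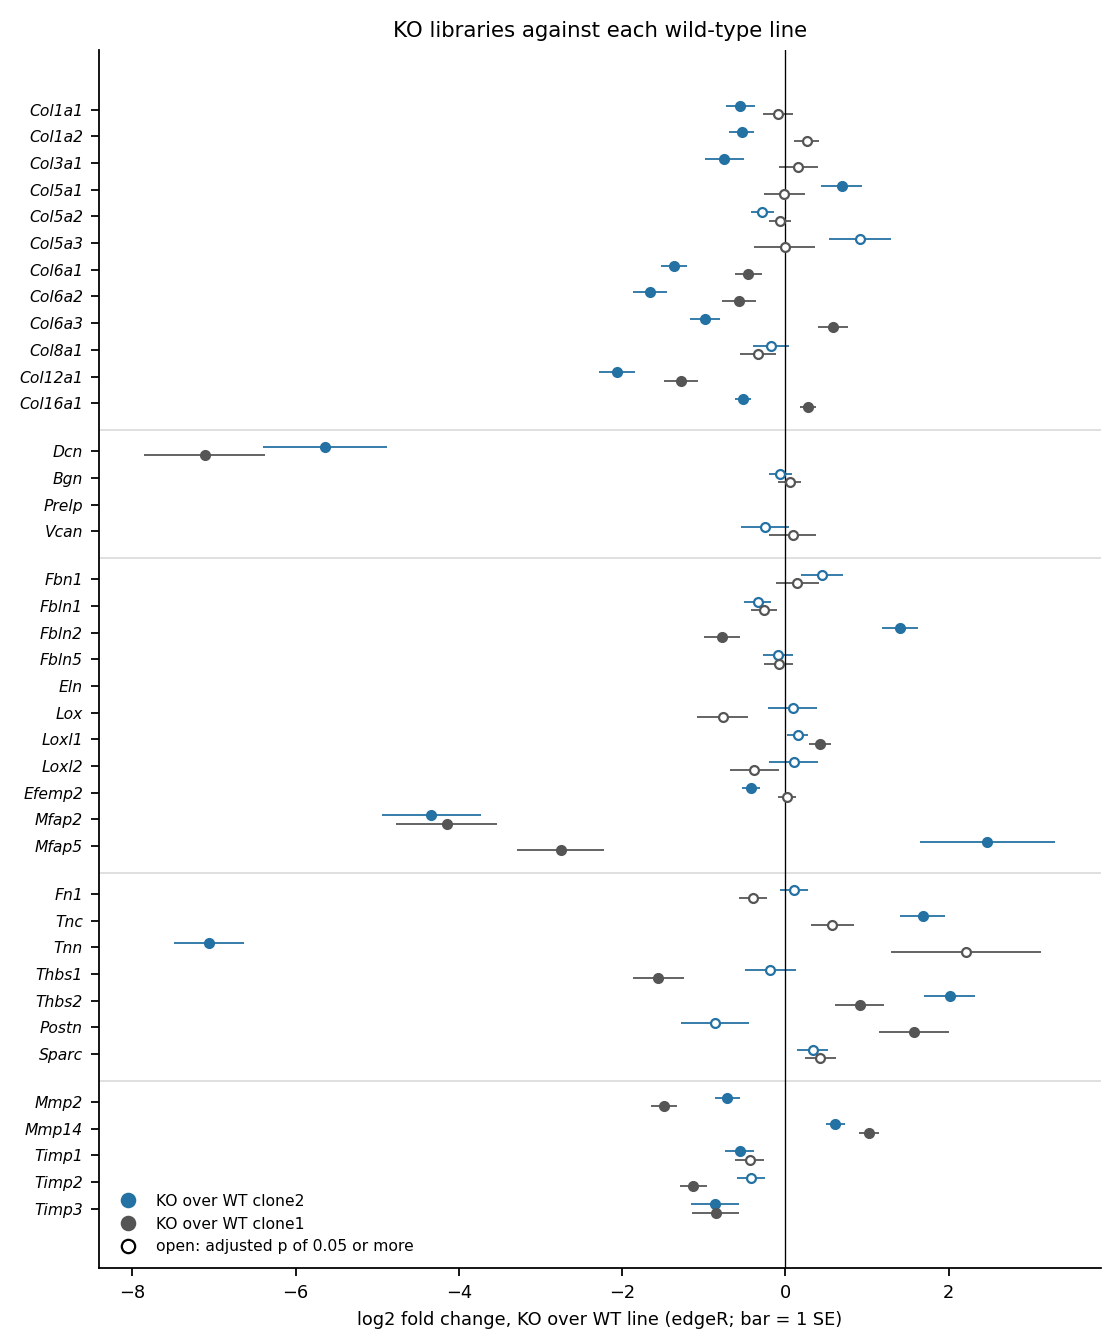
Log2 fold change of each member in KO-labelled libraries over WT clone2 (blue) and over WT clone1 (grey), with bars of 1 SE from edgeR and open symbols where the adjusted p was 0.05 or more; grey lines separate collagens, proteoglycans, elastic fibre genes, matricellular genes and proteases with inhibitors. Prelp and Eln have no symbol because the KO-labelled libraries held 0 and 2 counts of them, and Col6a3, Col16a1, Fbln2 and Mfap5 lie on opposite sides of 0 against the wild-type lines.

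Each of 9 members was lower in the KO-labelled libraries against WT clone2, WT clone1 and both pooled: Col12a1, Col6a1, Col6a2, Dcn, Eln, Mfap2, Mmp2, Prelp and Timp3. Of these, Dcn, Eln, Mfap2 and Prelp entered the test through the wild-type libraries in which they were higher. Mmp14 and Thbs2 were higher in the same 3 comparisons. Promoter sequences of these 11 genes were looked up in the RefSeq promoter table of the GRCm38.p6 assembly, which held 27 of the 40 members and 7 of these 11. The 200 bases upstream of the canonical start are shown for the 4 whose table entry covered that window, placed in GRCm39 by an exact match, since these genes moved in a single direction. Capitals mark, on either strand, the TATA box letters TATAAA, the letters CCAAT that the factor NF-Y recognises, and the GC box core GGGCGG that Sp1 recognises, and no match overlapped another. The window of Mfap2 is on the + strand at chr4:140737755-140737954, that of Timp3 on the + strand at chr10:86136036-86136235, that of Prelp on the - strand at chr1:133849153-133849352 and that of Thbs2 on the - strand at chr17:14914529-14914728, each written 5′ to 3′ along its gene.
Mfap2: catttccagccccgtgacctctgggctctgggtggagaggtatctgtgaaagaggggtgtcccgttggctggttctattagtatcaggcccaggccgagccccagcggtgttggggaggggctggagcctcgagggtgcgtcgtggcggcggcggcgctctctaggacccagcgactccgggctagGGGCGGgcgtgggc
Timp3: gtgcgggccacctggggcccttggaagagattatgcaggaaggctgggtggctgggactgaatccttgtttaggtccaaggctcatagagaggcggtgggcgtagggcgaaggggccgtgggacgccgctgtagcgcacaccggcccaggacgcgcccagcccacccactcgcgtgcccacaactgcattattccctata
Prelp: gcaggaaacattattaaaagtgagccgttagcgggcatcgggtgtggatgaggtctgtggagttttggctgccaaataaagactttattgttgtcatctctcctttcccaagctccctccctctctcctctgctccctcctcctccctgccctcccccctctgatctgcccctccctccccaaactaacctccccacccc
Thbs2: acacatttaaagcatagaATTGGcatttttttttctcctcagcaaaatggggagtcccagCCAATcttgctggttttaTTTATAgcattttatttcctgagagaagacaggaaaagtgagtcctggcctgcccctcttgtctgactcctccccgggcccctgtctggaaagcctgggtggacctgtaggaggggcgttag
Over 32851 promoters of the table, the 200 bases before the RefSeq start held TATAAA in 9.96%, CCAAT in 29.3% and GGGCGG in 31%. The windows shown lie further upstream than that, by 37 bases for Mfap2, 40 for Timp3, 13 for Prelp and 4 for Thbs2. The windows of Prelp and Timp3 held none of these letters, that of Mfap2 held GGGCGG once, and that of Thbs2 held CCAAT in 2 places and TATAAA in 1 place.

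Collagen genes were lower in KO-labelled libraries mainly against WT clone2. Of 12, 8 fell and 1 rose against WT clone2 (median log2 fold change -0.54), 3 fell and 2 rose against WT clone1 (median -0.04), and 3 fell and none rose against the pooled lines. These calls were 75%, 41.7% and 25% of the class, beside 38.4%, 36.1% and 18.8% of all genes. Fewer cells of a type and less RNA per cell cannot be told apart in such bulk samples. The largest decrease was in Col12a1, whose product bridges collagen I fibres and which lies on the - strand of chromosome 9 (chr9:79506268-79626135, GRCm39, as are all gene positions here). Col12a1 was at 469, 468, 644 and 573 CPM in KO-labelled libraries, against 1800, 1590, 3340 and 2230 CPM in WT clone2 and 1180, 1340, 1610 and 1110 CPM in WT clone1 (experiments 1 to 4). The highest KO-labelled library lay below the lowest wild-type library. Col12a1 had a log2 fold change of -2.06 ± 0.22 (SE) against WT clone2 (edgeR adjusted p 6.81e-06) and -1.28 ± 0.21 against WT clone1 (edgeR adjusted p 0.000367). Against the pooled lines it was -1.72 ± 0.29 (edgeR adjusted p 0.00111), and the call held without each library in turn, with adjusted p up to 0.00629. Genes on the opposite strand cover 5.86% of its exon bases, and no source used here gives the strand setting of the counting.

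The collagen VI chains did not move together. Col6a1 was at 243, 243, 282 and 189 CPM in KO-labelled libraries, at 583, 580, 787 and 514 CPM in WT clone2 and at 315, 282, 406 and 307 CPM in WT clone1. KO-labelled libraries lay below all of WT clone2 and met WT clone1 at the edge, where KO-labelled library 3 and WT clone1 library 2 both had 282 CPM. The log2 fold change of Col6a1 was -1.36 ± 0.16 against WT clone2 (edgeR adjusted p 1.67e-05) and -0.45 ± 0.16 against WT clone1 (edgeR adjusted p 0.0375). Col6a2 followed the same pattern, with means of 133 ± 34.3 CPM in KO-labelled, 420 ± 107 in WT clone2 and 197 ± 46.1 in WT clone1 libraries (SD, n = 4 each), and log2 fold changes of -1.66 ± 0.21 (edgeR adjusted p 3.92e-05) and -0.57 ± 0.21 (edgeR adjusted p 0.0479). Against the pooled lines the edgeR adjusted p was 0.0244 for Col6a1 and 0.0251 for Col6a2, and both calls were lost without KO-labelled library 1, 2 or 4 (highest adjusted p 0.0834 and 0.0826). Against WT clone1 the call of Col6a1 was lost without any of 6 libraries (KO-labelled 1, 2 and 4, WT clone2 library 2, WT clone1 libraries 3 and 4; highest 0.126), and that of Col6a2 without any of 9 (KO-labelled 1, 2 and 4, WT clone2 1, 2 and 4, WT clone1 1, 3 and 4; highest 0.166). Col6a2 against WT clone1 was also lost without both experiment 1 libraries that stood apart (adjusted p 0.0676) and in a fit of these 2 lines alone (0.0531), and Col6a1 against the pooled lines without experiment 3 (0.0675).

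Col6a3, the remaining chain, ran the other way against WT clone1. It was at 701, 488, 716 and 513 CPM in KO-labelled libraries, at 1060, 956, 1590 and 1190 CPM in WT clone2 and at 459, 357, 466 and 332 CPM in WT clone1. The lines did not overlap, with the KO-labelled line between the wild-type lines. Col6a3 had a log2 fold change of -0.99 ± 0.18 against WT clone2 (edgeR adjusted p 0.000797) and 0.58 ± 0.18 against WT clone1 (edgeR adjusted p 0.0229), and the call against WT clone1 was lost without KO-labelled library 1 or 3 or WT clone1 library 2 or 4 (highest adjusted p 0.0708). WT clone2 exceeded WT clone1 by 1.57 ± 0.18 (edgeR adjusted p 1.63e-05). Col16a1, a collagen of the fibre surface, had the same order at a smaller scale, at 108 ± 6.83 CPM in KO-labelled, 154 ± 13.4 in WT clone2 and 88.6 ± 11.4 in WT clone1 libraries. Col16a1 had a log2 fold change of -0.52 ± 0.10 against WT clone2 (edgeR adjusted p 0.00122) and 0.28 ± 0.10 against WT clone1 (edgeR adjusted p 0.0465). The call of Col16a1 against WT clone1 was lost without any of 9 libraries (KO-labelled 1 to 4, WT clone2 1, 2 and 3, WT clone1 2 and 4; highest adjusted p 0.136), without experiment 3 (0.091), with library size as the sole scaling (0.0772) and in a fit of these 2 lines alone (0.0733).

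The fibre-forming chains of collagens I and III fell against WT clone2 but passed no test against WT clone1 or the pooled lines. Col1a1 was at 6170, 4130, 5550 and 4520 CPM in KO-labelled libraries, at 7090, 6930, 9070 and 6760 CPM in WT clone2 and at 6780, 3800, 6040 and 5040 CPM in WT clone1. KO-labelled libraries were below every WT clone2 library and within the range of WT clone1. The log2 fold changes against WT clone2 were -0.55 ± 0.18 for Col1a1 (edgeR adjusted p 0.0298), -0.54 ± 0.15 for Col1a2 (0.0119) and -0.75 ± 0.24 for Col3a1 (0.0245). The Col1a1 call was lost without KO-labelled 2 or 4 or WT clone2 2, 3 or 4 (highest adjusted p 0.112), that of Col1a2 without KO-labelled 2 (0.0512), and that of Col3a1 without KO-labelled 2 or 4 or WT clone2 1 or 3 (0.0861). All 3 were lost without experiment 3, with adjusted p of 0.116, 0.0663 and 0.0679. Between the wild-type lines, WT clone2 exceeded WT clone1 by 0.80 ± 0.15 for Col1a2 (edgeR adjusted p 0.000779) and 0.91 ± 0.24 for Col3a1 (0.00783). Col1a1 had an edgeR adjusted p of 0.0576 there and of 0.0046 with the experiment number as a block (log2 fold change 0.49), or 0.0105 without the experiment 1 libraries that stood apart. Genes on the opposite strand cover 10.34% of the exon bases of Col1a2.

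Col5a1, which nucleates collagen I fibres, was the single collagen gene called higher than in WT clone2. Its levels were 1320, 797, 1440 and 907 CPM in KO-labelled libraries, 621, 493, 1050 and 604 CPM in WT clone2 and 1280, 898, 1380 and 941 CPM in WT clone1. KO-labelled and WT clone1 libraries covered the same range, and WT clone2 library 3 reached into it. The log2 fold change of Col5a1 against WT clone2 was 0.69 ± 0.25 (edgeR adjusted p 0.0409), lost without KO-labelled 1 or 3 or WT clone2 1, 2 or 4 (highest adjusted p 0.124), in a fit of these 2 lines alone (0.0542) and without the experiment 1 libraries that stood apart (0.0825). Between the wild-type lines it was -0.70 ± 0.25 (edgeR adjusted p 0.0343), lost without WT clone2 1, 2 or 4 or WT clone1 1 or 3 (highest 0.0954) and without the experiment 1 libraries that stood apart (0.0543). Its partner Col5a2 was called in no comparison, at 1010 ± 118 CPM in KO-labelled, 1230 ± 219 in WT clone2 and 1060 ± 148 in WT clone1 libraries. The same held for Col8a1, a short-chain network collagen, at 250 ± 42.7, 283 ± 40 and 314 ± 118 CPM in that order of lines. Col5a3, another collagen V chain, was at 8.71 ± 4.61, 4.6 ± 2.37 and 8.74 ± 2.06 CPM. Its edgeR adjusted p was 0.0756 in KO-labelled libraries against WT clone2 and 0.0658 between the wild-type lines. The comparison of Col5a3 with WT clone2 passed with DESeq2 (log2 fold change 0.92, adjusted p 0.0397) and in edgeR without experiment 3 (0.95, adjusted p 0.0396). With the experiment number as a block, the difference between the wild-type lines passed for Col5a2 (log2 fold change 0.21, edgeR adjusted p 0.0436) and Col5a3 (-1, edgeR adjusted p 0.00195). WT clone2 was higher than WT clone1 in 7 collagen genes and lower in 1, with a median log2 fold change of 0.79 beside 0.02 over all genes tested. That was 66.7% of the 12 collagen genes called, beside 42.6% of all genes. The 7 included Col6a1 (0.91 ± 0.16, edgeR adjusted p 0.000397), Col6a2 (1.09 ± 0.21, 0.000914) and Col12a1 (0.78 ± 0.21, 0.00879).

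Decorin (Dcn) and prolargin (Prelp), small leucine-rich proteoglycans that bind collagen, fell in each comparison of the KO-labelled line, and no proteoglycan gene of the 4 rose. The share called was 50% each time, beside 38.4% of all genes against WT clone2, 36.1% against WT clone1 and 18.8% against the pooled lines. Dcn lies on the + strand at chr10:97315275-97358155 and Prelp on the - strand at chr1:133837335-133857971. Dcn was at 0.172, 0.414, 0.393 and 0.115 CPM in KO-labelled libraries, at 9.41, 5.25, 27.3 and 13.1 CPM in WT clone2 and at 18.7, 35.9, 74.1 and 24.6 CPM in WT clone1. Every wild-type library exceeded every KO-labelled library. Dcn had a log2 fold change of -5.64 ± 0.76 against WT clone2 (edgeR adjusted p 5.97e-05), -7.12 ± 0.74 against WT clone1 (6.97e-06) and -6.55 ± 0.87 against the pooled lines (0.000224), and each call held when any single library was left out. WT clone2 was itself lower than WT clone1 by a log2 fold change of -1.48 ± 0.47 (SE, edgeR adjusted p 0.0204), a call lost without WT clone2 library 1 or WT clone1 library 3 (highest adjusted p 0.0930).

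Prelp had 0 counts in all 4 KO-labelled libraries, against 157, 76, 604 and 160 counts in WT clone2 and 15, 22, 103 and 6 counts in WT clone1. In CPM this was 0 in KO-labelled libraries, 6.51, 4.34, 33.4 and 9.03 in WT clone2 and 0.781, 1.22, 5.47 and 0.375 in WT clone1. The experiment 3 library was the highest of each wild-type line. With a floor of 3 counts over the KO-labelled group, Prelp was at least 287-fold lower than in WT clone2 (148-fold without WT clone2 library 3), at least 45.2-fold lower than in WT clone1 (18-fold without WT clone1 library 3) and at least 171-fold lower than in the pooled lines (91.5-fold without WT clone2 library 3); the floor covers counting error only. The edgeR adjusted p was 0.000939, 0.022 and 0.0153 in these comparisons, and that against WT clone1 was 0.0597 without WT clone1 library 3. In a fit of the KO-labelled and WT clone1 libraries alone Prelp did not pass the filter on low counts, so its test against WT clone1 rests on the WT clone2 counts that carried it past the filter. Between the wild-type lines Prelp was higher in WT clone2 (log2 fold change 2.73 ± 0.82, edgeR adjusted p 0.0208), a call lost without WT clone2 library 3 or WT clone1 library 2 or 4 (highest 0.0711).

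The other proteoglycan genes passed no test. Bgn, a close relative of decorin that lies on the X chromosome, was at 2910 ± 418 CPM in KO-labelled, 3040 ± 578 in WT clone2 and 2810 ± 297 in WT clone1 libraries, with edgeR adjusted p of 0.762 and 0.816 for the KO-labelled line against them. Versican (Vcan), a large chondroitin sulphate proteoglycan, was at 124, 300, 265 and 375 CPM in KO-labelled libraries, at 243, 328, 355 and 338 CPM in WT clone2 and at 142, 306, 311 and 240 CPM in WT clone1. Its lowest value in each line was that of experiment 1.

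**Figure D2:**
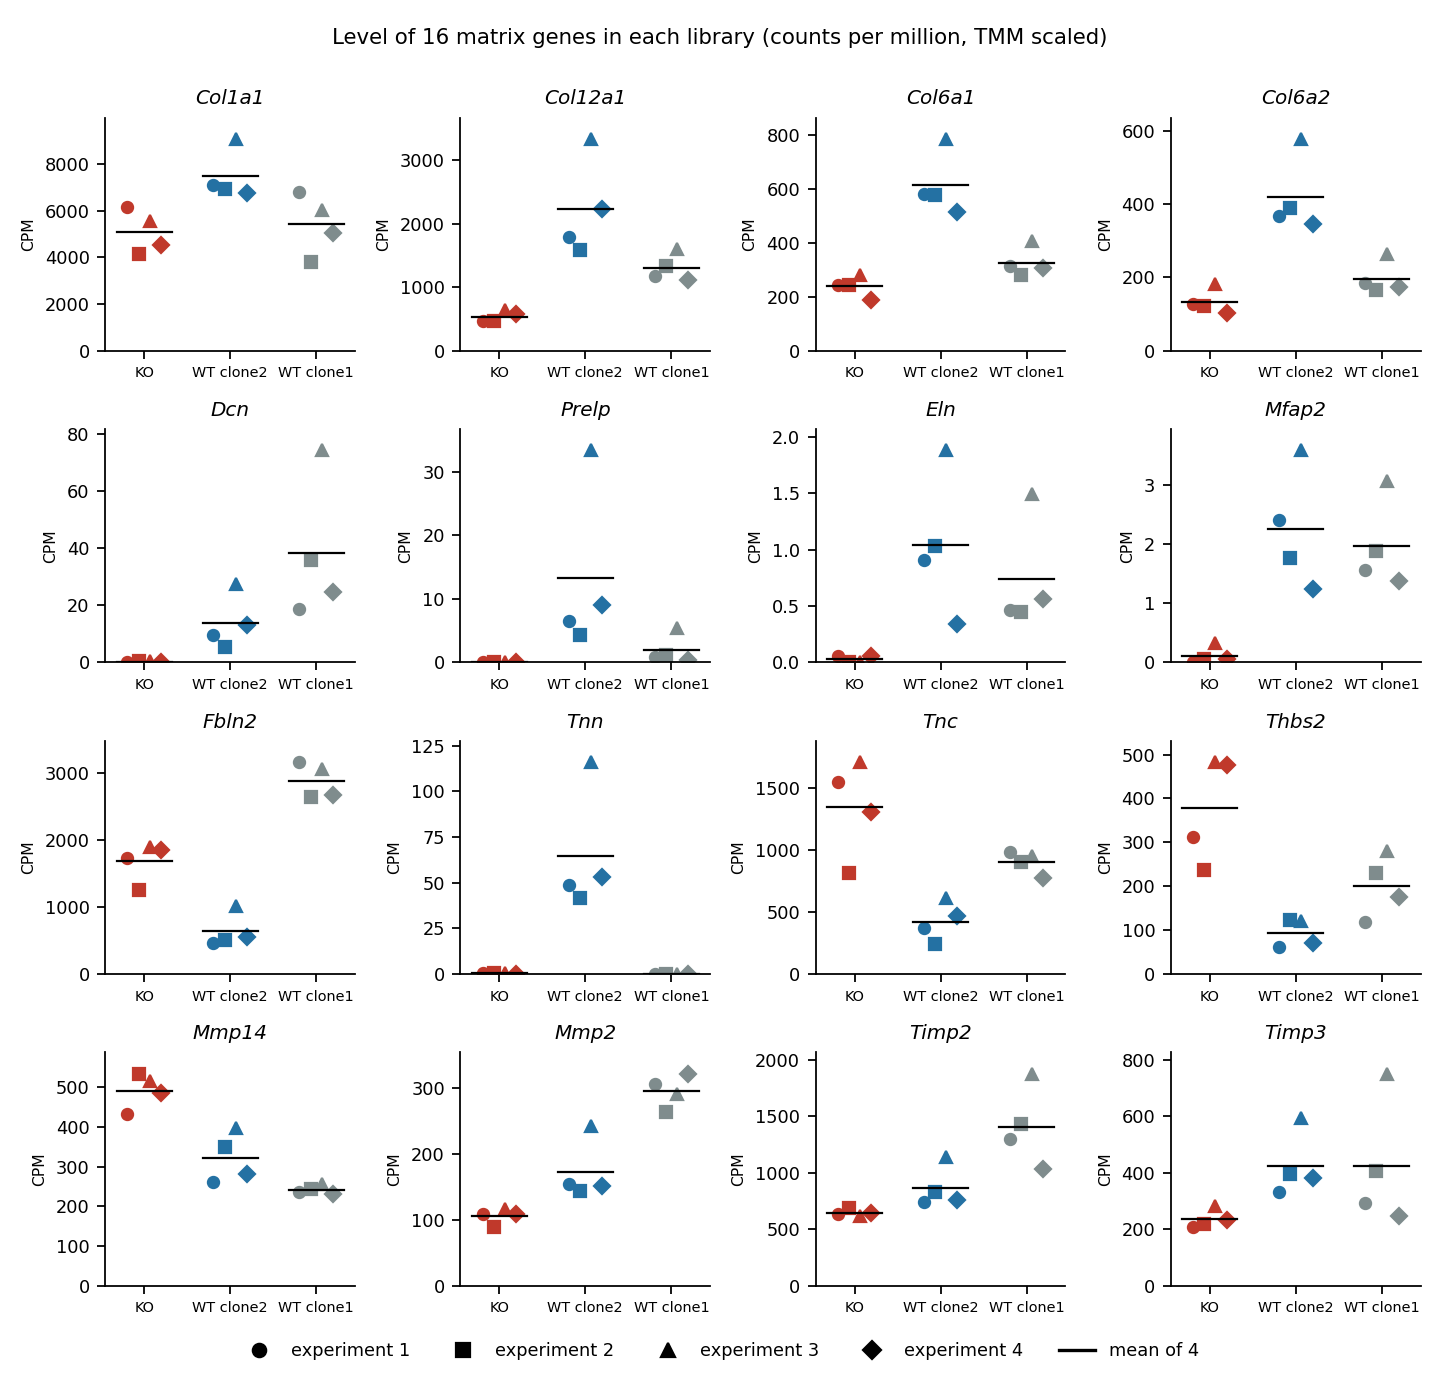
CPM of 16 members in each library, with a symbol per experiment and a line at the mean of 4; each panel has its own axis from 0. Dcn, Prelp, Eln and Mfap2 lie near 0 in all KO-labelled libraries, Tnn is high in WT clone2 alone (41.5 to 116 CPM), and the experiment 3 triangle is the top symbol of its line in many panels.

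Among 11 elastic fibre genes, 2 rose and 3 fell against WT clone2, 1 rose and 4 fell against WT clone1, and 2 fell against the pooled lines. Those 2 were the elastin gene Eln and Mfap2, which encodes a microfibril-associated glycoprotein. The class was called in 45.5%, 45.5% and 18.2% in these comparisons, near the 38.4%, 36.1% and 18.8% of all genes. Eln lies on the - strand at chr5:134731445-134776322 and Mfap2 on the + strand at chr4:140737729-140743295. Mfap2 was at 0, 0.0592, 0.327 and 0.0577 CPM in KO-labelled libraries, at 2.41, 1.77, 3.59 and 1.24 CPM in WT clone2 and at 1.56, 1.89, 3.08 and 1.37 CPM in WT clone1. All wild-type libraries exceeded all KO-labelled ones. Mfap2 had a log2 fold change of -4.34 ± 0.61 against WT clone2 (edgeR adjusted p 8.56e-05) and -4.15 ± 0.62 against WT clone1 (0.00016). Eln was scarce in every line: it had 2 counts over the KO-labelled libraries, 80 over WT clone2 and 54 over WT clone1. In CPM that was 0.0574, 0, 0 and 0.0577 in KO-labelled libraries, 0.912, 1.03, 1.88 and 0.339 in WT clone2 and 0.468, 0.445, 1.49 and 0.562 in WT clone1. The ratio of the KO-labelled level to that in WT clone2 was 0.0289 (exact 95% counting interval 0.00344 to 0.108) and to that in WT clone1 0.0399 (0.00471 to 0.151), with edgeR adjusted p of 0.000639 and 0.00219. These intervals cover counting error only. In fits of only the 2 lines compared Eln did not pass the filter against either wild-type line.

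Fibulin 2 (Fbln2), a microfibril-binding protein, and Mfap5, a second microfibril-associated glycoprotein, placed the KO-labelled line between the wild-type lines. Fbln2 was at 1730, 1250, 1890 and 1850 CPM in KO-labelled libraries, at 457, 512, 1020 and 558 CPM in WT clone2 and at 3160, 2640, 3050 and 2670 CPM in WT clone1. No library of one line reached into another line. Fbln2 had a log2 fold change of 1.40 ± 0.22 against WT clone2 (edgeR adjusted p 0.000242), -0.78 ± 0.22 against WT clone1 (0.0139) and -2.18 ± 0.23 for WT clone2 against WT clone1 (5.58e-06). Mfap5 was scarcer in every line, at 0.516, 0.592, 0.851 and 1.04 CPM in KO-labelled libraries, at 0.166, 0.114, 0.111 and 0.113 CPM in WT clone2 and at 1.98, 5.73, 10.7 and 1.87 CPM in WT clone1. These ranges did not overlap either. Mfap5 had a log2 fold change of 2.48 ± 0.83 against WT clone2 (edgeR adjusted p 0.0302), -2.75 ± 0.53 against WT clone1 (0.0011) and -5.23 ± 0.67 between the wild-type lines (3.49e-05). The first of these was lost without KO-labelled library 3 or 4 or any of the WT clone2 libraries (highest adjusted p 0.069). It rests on 50 counts over the KO-labelled and 10 over the WT clone2 libraries. In a fit of these 2 lines alone Mfap5 did not pass the filter on low counts, so the WT clone1 counts carried it into that test.

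The crosslinking enzymes passed few tests. Lysyl oxidase (Lox) was at 1070, 1090, 1700 and 1350 CPM in KO-labelled libraries, at 893, 785, 2020 and 1190 CPM in WT clone2 and at 1620, 2250, 3410 and 1590 CPM in WT clone1. WT clone2 lay below WT clone1 in the test (log2 fold change -0.86 ± 0.31, edgeR adjusted p 0.0368), a call lost without WT clone2 1, 2 or 4 or WT clone1 2 or 3 (highest adjusted p 0.137). Against WT clone1 the KO-labelled line had an edgeR adjusted p of 0.0661 for Lox, and of 0.00226 (log2 fold change -0.73) with the experiment number as a block. Loxl1 rose against WT clone1, at 463 ± 51.9 CPM in KO-labelled and 345 ± 50.1 in WT clone1 libraries (log2 fold change 0.42 ± 0.13, edgeR adjusted p 0.0218), but not without KO-labelled 1 or WT clone1 2 or 3 (highest 0.0709) or without experiment 3 (0.0628). WT clone2 passed against WT clone1 in Loxl1 without the experiment 1 libraries that stood apart (edgeR adjusted p 0.0148) and not with them (0.108). Loxl2 was called in no comparison, at 91.0 ± 31.4 CPM in KO-labelled, 84.7 ± 40.7 in WT clone2 and 118 ± 17.3 in WT clone1 libraries. With the block, Loxl2 passed against WT clone1 in KO-labelled libraries (log2 fold change -0.45, edgeR adjusted p 0.0334) and in WT clone2 (-0.58, 0.00795); opposite-strand genes cover 22.53% of its exon bases. Efemp2 (fibulin 4), needed for elastin assembly in mice, fell against WT clone2, at 264, 201, 231 and 217 CPM in KO-labelled and 285, 289, 377 and 272 CPM in WT clone2 libraries (log2 fold change -0.42 ± 0.11, edgeR adjusted p 0.00997), a call lost without KO-labelled library 2 (0.0546) or without experiment 3 (0.0635). WT clone2 also exceeded WT clone1 in Efemp2 by 0.44 ± 0.11 (edgeR adjusted p 0.00692).

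The fibrillin gene Fbn1 and the fibulin genes Fbln1 and Fbln5 were called in no comparison. Fbn1 averaged 539 ± 174 CPM in KO-labelled, 395 ± 129 in WT clone2 and 487 ± 122 in WT clone1 libraries, with 20.14% of its exon bases shared with opposite-strand genes. Fbln5 averaged 388 ± 37.0, 414 ± 105 and 411 ± 94.1 CPM in the same order of lines, and Fbln1 62.7 ± 8.07, 79.4 ± 17.8 and 75.2 ± 14.2 CPM.

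Of the 7 fibronectin and matricellular genes, 2 rose and 1 fell against WT clone2, 2 rose and 1 fell against WT clone1, and 1 rose against the pooled lines. That 1 was thrombospondin 2 (Thbs2), a matrix protein that in mice limits angiogenesis and affects collagen fibre assembly, on the - strand at chr17:14885761-14914528. The class was called in 42.9%, 42.9% and 14.3% in these comparisons, near the 38.4%, 36.1% and 18.8% of all genes. Thbs2 was at 313, 237, 483 and 477 CPM in KO-labelled libraries, at 61.0, 123, 120 and 70.3 CPM in WT clone2 and at 118, 229, 280 and 176 CPM in WT clone1. KO-labelled libraries exceeded all of WT clone2, and the lowest of them lay below the highest WT clone1 library. Thbs2 had a log2 fold change of 2.01 ± 0.31 against WT clone2 (edgeR adjusted p 0.000211), 0.91 ± 0.30 against WT clone1 (0.0321) and 1.36 ± 0.36 against the pooled lines (0.0205). The call against WT clone1 was lost without KO-labelled 3 or 4 or WT clone1 1 or 4 (highest adjusted p 0.0901), and the pooled call without KO-labelled 3 or 4 (0.0692). Leaving out the experiment 1 libraries that stood apart gave adjusted p-values of 0.0525 and 0.054 in these comparisons, and leaving out experiment 3 gave 0.0571 and 0.0552.

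Thbs1, an activator of latent TGF-beta, differed in another way. It was at 2150, 1200, 2650 and 2540 CPM in KO-labelled libraries, at 2020, 1390, 3670 and 2630 CPM in WT clone2 and at 6040, 6380, 8620 and 4090 CPM in WT clone1. WT clone1 stood above the other lines, which overlapped. Thbs1 fell by 1.56 ± 0.31 on the log2 scale in KO-labelled libraries against WT clone1 (edgeR adjusted p 0.00161), and WT clone2 was lower than WT clone1 as well, with a log2 fold change of -1.37 ± 0.31 (0.00306). Opposite-strand genes cover 11.13% of its exon bases. Thbs2, by contrast, was lower in WT clone2 than in WT clone1 by a log2 fold change of -1.10 ± 0.31 (SE, edgeR adjusted p 0.0105).

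Tenascin C (Tnc), a large glycoprotein of remodelling and embryonic matrix, rose against WT clone2. It was at 1550, 812, 1710 and 1310 CPM in KO-labelled libraries, at 367, 238, 613 and 464 CPM in WT clone2 and at 984, 903, 952 and 777 CPM in WT clone1. All KO-labelled libraries exceeded WT clone2, while KO-labelled library 2 fell within WT clone1. Tnc had a log2 fold change of 1.68 ± 0.27 against WT clone2 (edgeR adjusted p 0.000234) and, for WT clone2 against WT clone1, -1.10 ± 0.26 (0.00397). Against WT clone1 the KO-labelled line had an edgeR adjusted p of 0.103, or 0.0415 with the experiment number as a block (log2 fold change 0.50). Tenascin W (Tnn), which in mice marks developing bone and some tumour stroma, was at 0.688, 0.473, 0.524 and 0.231 CPM in KO-labelled libraries, at 48.7, 41.5, 116 and 53.0 CPM in WT clone2 and at 0, 0.111, 0.106 and 0.187 CPM in WT clone1. WT clone2 stood apart from both other lines, with a log2 fold change of -7.06 ± 0.43 for KO-labelled over WT clone2 (edgeR adjusted p 4.87e-08) and 9.28 ± 0.52 for WT clone2 over WT clone1 (2.04e-08). All KO-labelled libraries exceeded WT clone1 in Tnn at these low levels, with an edgeR adjusted p of 0.0772, or 0.0109 with the block (log2 fold change 2.27). This comparison rests on 32 counts over the KO-labelled and 7 over the WT clone1 libraries. In a fit of these 2 lines alone Tnn did not pass the filter on low counts, so the WT clone2 counts carried it into that test.

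Periostin (Postn), a collagen-binding matricellular protein of bone and tendon, varied widely within lines. It was at 273, 372, 1030 and 521 CPM in KO-labelled libraries, at 989, 655, 1410 and 933 CPM in WT clone2 and at 73.1, 221, 274 and 167 CPM in WT clone1. Experiment 3 was the highest of each line, and KO-labelled library 1 overlapped WT clone1. Postn had a log2 fold change of 1.58 ± 0.43 against WT clone1 (edgeR adjusted p 0.011) and 2.44 ± 0.44 for WT clone2 over WT clone1 (0.000574). Against WT clone2 the KO-labelled line had an edgeR adjusted p of 0.125 for Postn, and of 0.039 without experiment 3 (log2 fold change -1.14). Fibronectin (Fn1), the adhesive protein on which fibroblasts lay down collagen, was at 5370, 3840, 6010 and 4880 CPM in KO-labelled libraries, at 3870, 4150, 6230 and 4420 CPM in WT clone2 and at 7080, 6110, 7160 and 6130 CPM in WT clone1. All KO-labelled libraries lay below WT clone1, with an edgeR adjusted p of 0.0791, or 0.0119 with the block (log2 fold change -0.41). WT clone2 was lower than WT clone1 in Fn1 (log2 fold change -0.50 ± 0.17, edgeR adjusted p 0.0259), a call lost without WT clone2 1, 2 or 4 or WT clone1 3 (highest 0.0799). Sparc (osteonectin) was at 2140 ± 438 CPM in KO-labelled, 1700 ± 417 in WT clone2 and 1590 ± 271 in WT clone1 libraries and was called in no comparison, though with the block it passed against WT clone1 (log2 fold change 0.43, edgeR adjusted p 0.00639).

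The protease and inhibitor genes formed the class with the largest share called against the pooled lines (80% of 5 genes, beside 18.8% of all genes). There Mmp14 (+ strand, chr14:54668878-54682821) rose, and Mmp2 (+ strand, chr8:93553902-93580049), Timp2 (- strand, chr11:118191887-118246566) and Timp3 (+ strand, chr10:86136236-86185371) fell. Mmp14 was at 433, 534, 515 and 484 CPM in KO-labelled libraries, at 260, 348, 396 and 282 CPM in WT clone2 and at 237, 243, 256 and 230 CPM in WT clone1. Every KO-labelled library exceeded every wild-type library, and every WT clone2 library exceeded every WT clone1 library. Mmp14 had a log2 fold change of 0.61 ± 0.12 against WT clone2 (edgeR adjusted p 0.00145), 1.03 ± 0.12 against WT clone1 (2.7e-05) and 0.80 ± 0.14 against the pooled lines (0.00178), and no single library decided a call. WT clone2 exceeded WT clone1 by 0.41 ± 0.12 (edgeR adjusted p 0.0154), a call lost without experiment 3 (0.0718). Mmp2 ran in the opposite order, at 109, 89.3, 116 and 109 CPM in KO-labelled libraries, at 155, 144, 243 and 151 CPM in WT clone2 and at 307, 264, 291 and 322 CPM in WT clone1. The lines did not overlap. Mmp2 had a log2 fold change of -0.71 ± 0.15 against WT clone2 (edgeR adjusted p 0.00236), -1.48 ± 0.16 against WT clone1 (7.47e-06) and -1.15 ± 0.24 against the pooled lines (0.00548), again with no call lost without a library. WT clone2 was lower than WT clone1 with a log2 fold change of -0.77 ± 0.15 (SE, edgeR adjusted p 0.00111). An opposite-strand gene covers 24.34% of the exon bases of Mmp2.

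Timp2, which inhibits metalloproteinases and also takes part in the activation of MMP2 by MT1-MMP, was at 636, 684, 620 and 645 CPM in KO-labelled libraries, at 737, 830, 1140 and 761 CPM in WT clone2 and at 1300, 1430, 1880 and 1030 CPM in WT clone1. KO-labelled libraries were below all wild-type libraries and varied least. Timp2 had a log2 fold change of -1.13 ± 0.17 against WT clone1 (edgeR adjusted p 0.000214), -0.70 ± 0.17 for WT clone2 against WT clone1 (0.00504) and -0.82 ± 0.24 against the pooled lines (0.0294); against WT clone2 the adjusted p was 0.0683. That comparison passed in a fit of these 2 lines alone (edgeR adjusted p 0.0331) and with library size as the sole scaling (0.0431). The pooled call was lost when any 1 of the KO-labelled libraries was left out (highest adjusted p 0.0815), without the experiment 1 libraries that stood apart (0.0866) and without experiment 3 (0.119). Another gene on the same strand shares 7.44% of the exon bases of Timp2.

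Timp3, the inhibitor that binds to the matrix, was at 207, 217, 282 and 231 CPM in KO-labelled libraries, at 332, 394, 593 and 382 CPM in WT clone2 and at 291, 406, 751 and 246 CPM in WT clone1. KO-labelled libraries lay below WT clone2, and their highest exceeded the lowest of WT clone1. Timp3 had a log2 fold change of -0.86 ± 0.29 against WT clone2 (edgeR adjusted p 0.0336), -0.85 ± 0.29 against WT clone1 (0.0366) and -0.86 ± 0.27 against the pooled lines (0.0414). Each of these calls rested on single libraries: the pooled one was lost without any of 8 libraries (all 4 KO-labelled, WT clone2 2, 3 and 4, WT clone1 2; highest adjusted p 0.113), that against WT clone2 without any of 5 (KO-labelled 1, 2 and 4, WT clone2 2 and 3; 0.106) and that against WT clone1 without any of 5 (KO-labelled 1, 2 and 4, WT clone1 2 and 3; 0.148). The pooled adjusted p was 0.0774 when the experiment 1 libraries that stood apart were left out, and in a fit of the 2 lines alone that against WT clone1 was 0.0583. Opposite-strand genes cover 21.29% of its exon bases. Timp1, X-linked and secreted, was at 172 ± 30.1 CPM in KO-labelled, 253 ± 73.7 in WT clone2 and 232 ± 34.6 in WT clone1 libraries. It fell against WT clone2 (log2 fold change -0.56 ± 0.18, edgeR adjusted p 0.0268), but not without KO-labelled 2 or 4 or WT clone2 3 (highest 0.0966) or without experiment 3 (0.0723), and against WT clone1 it passed with the block (log2 fold change -0.43, edgeR adjusted p 0.0099) and not without it (0.079). That comparison of Timp1 also passed with library size as the sole scaling (0.0343), in a fit of these 2 lines alone (0.0423) and without the experiment 1 libraries that stood apart (0.0404). Against the pooled lines Timp1 had an edgeR adjusted p of 0.0541, and of 0.046 without those libraries.

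Ratios of transcripts within a library, per kilobase, do not depend on scaling between libraries and are given as a description without a test. Mmp14 to Timp2 was 0.914, 1.05, 1.12 and 1.01 in KO-labelled libraries, 0.474, 0.564, 0.466 and 0.497 in WT clone2 and 0.245, 0.228, 0.183 and 0.300 in WT clone1. Mmp14 to Mmp2 was 4.43, 6.64, 4.92 and 4.92 in KO-labelled libraries, 1.86, 2.68, 1.81 and 2.07 in WT clone2 and 0.855, 1.02, 0.977 and 0.795 in WT clone1. In both ratios the 3 lines did not overlap and kept the order KO-labelled, WT clone2, WT clone1, whereas Mmp2 to Timp2 overlapped, with means of 0.199 ± 0.0291, 0.241 ± 0.0218 and 0.269 ± 0.0835. As given above, Mmp14 lay above all wild-type libraries, and Mmp2 and Timp2 below them. The separation of the KO-labelled ratios therefore follows from those levels and adds no further result. The same holds for the full order of Mmp14 to Mmp2. Thbs2 to Thbs1 was 0.187 ± 0.0238 in KO-labelled, 0.0467 ± 0.0308 in WT clone2 and 0.0344 ± 0.0104 in WT clone1 libraries, and Tnc to Fn1 was 0.304 ± 0.0415, 0.102 ± 0.0247 and 0.157 ± 0.0103, with all KO-labelled values above all wild-type values in both. Collagen chains that assemble together showed line differences of their own. Col5a1 to Col5a2 was 0.975 ± 0.170 in KO-labelled and 0.946 ± 0.0841 in WT clone1 libraries but 0.492 ± 0.0789 in WT clone2, and Col6a3 to Col6a1 was 1.14 ± 0.172 in KO-labelled, 0.877 ± 0.129 in WT clone2 and 0.558 ± 0.0748 in WT clone1 libraries. Col1a1 to Col1a2 was 1.05 ± 0.0870, 1.06 ± 0.0403 and 1.33 ± 0.168 in the same order of lines.

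**Figure D3:**
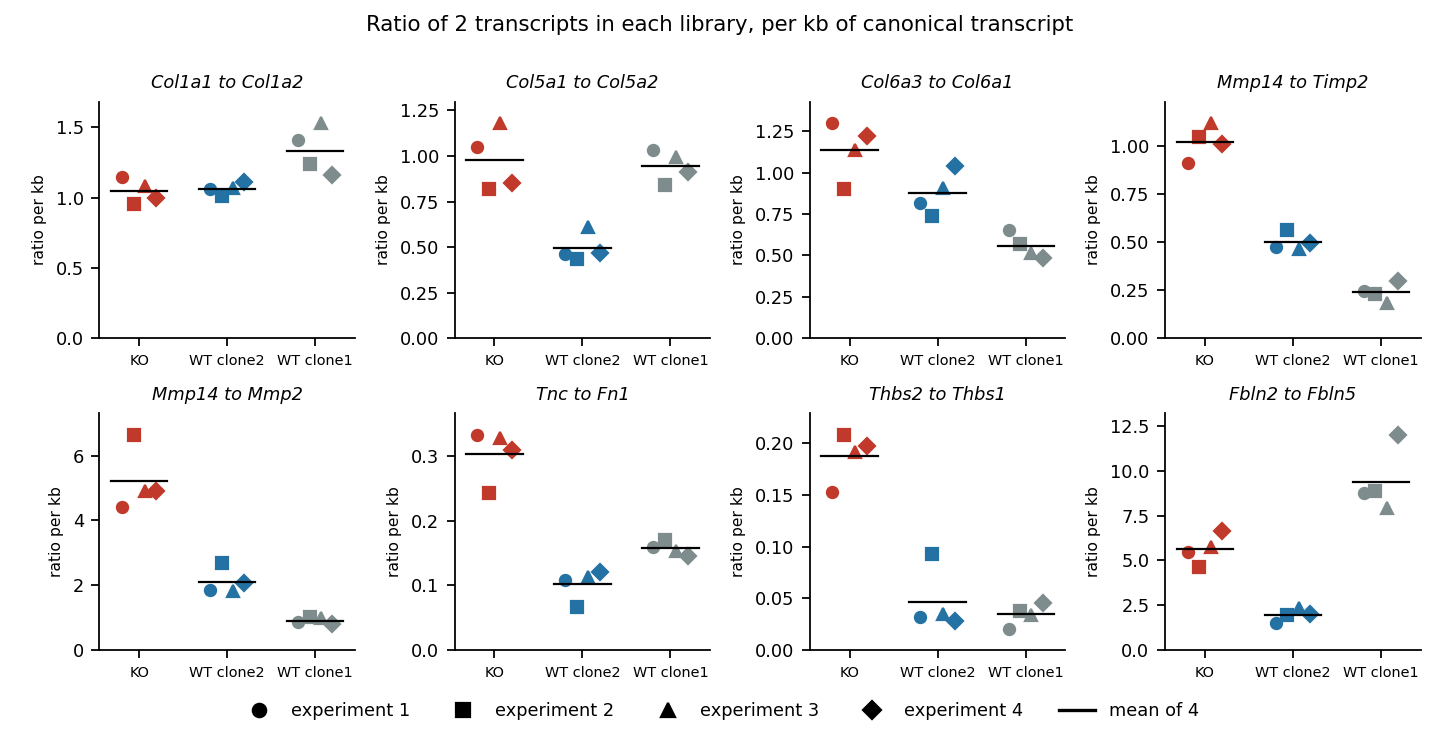
Ratio of CPM per kilobase of canonical transcript for 8 gene pairs in each library, with a symbol per experiment and a line at the mean of 4; axes start at 0. Mmp14 to Timp2 and Mmp14 to Mmp2 separate the 3 lines (means 1.02, 0.5 and 0.239, and 5.23, 2.10 and 0.912), and Thbs2 to Thbs1 and Tnc to Fn1 separate KO-labelled libraries from both wild-type lines.

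Within each line the module was raised in experiment 3. The experiment 3 library was the highest of its line for 21 of 39 members in the KO-labelled line (19.6% of all genes tested), for 36 in WT clone2 (32.2%) and for 28 in WT clone1 (24.9%). It was the highest in all 3 lines for 15 members, or 38.5%, beside 3.99% of all genes: Col3a1, Col5a1, Col6a1, Col6a2, Col6a3, Col12a1, Fbn1, Fbln5, Lox, Loxl2, Mfap2, Fn1, Thbs1, Postn and Timp3. The median deviation of the members from their line mean on the log2 scale was 0.19 in KO-labelled library 3, 0.49 in WT clone2 library 3 and 0.31 in WT clone1 library 3, while over all genes it was 0.02, 0.01 and 0.01. Library 2 was the lowest for 24 members in the KO-labelled line (20.3% of all genes tested) and 21 in WT clone2 (25.7%), and library 4 for 19 in WT clone1 (22.7%). What set experiment 3 apart is not given in the labels. Without its 3 libraries, an alternative chosen after the data were seen, the pooled comparison called 1 member higher, and calls lost there are named beside each gene above.

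**Figure D4:**
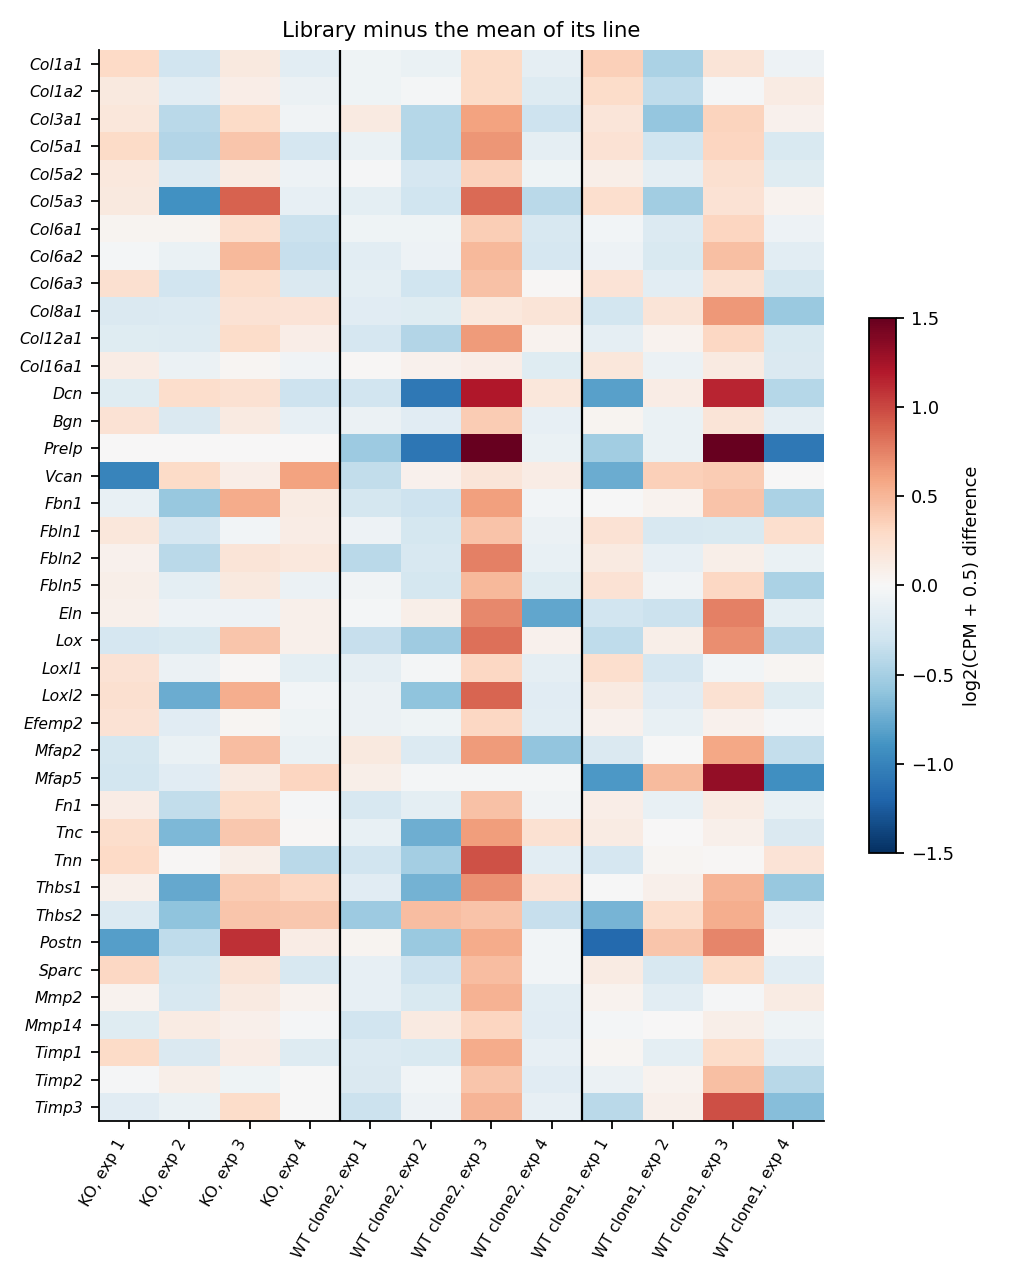
Log2(CPM + 0.5) of each member in each library minus the mean of its line, with red above and blue below the line mean; colours are capped at 1.5 in either direction, which Prelp in experiment 3 of both wild-type lines exceeds. The experiment 3 column is mostly red in each line, most clearly in WT clone2, where 36 of 39 members peaked.

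A wider list of 96 matrix genes outside the module had 84 tested genes, of which 9 rose and 16 fell in KO-labelled libraries against the pooled lines, beside the 8.47% and 10.3% of all genes given above. Its collagen synthesis genes included 4 that rose and 2 that fell of 27 (22.2%, beside 18.8% of all genes). Among those that passed against each line as well, Plod2, a lysyl hydroxylase, was at 108 ± 26 CPM in KO-labelled and 61.9 ± 6.14 in wild-type libraries (log2 fold change 0.80 ± 0.13, edgeR adjusted p 0.00079). Bmp1, which removes the collagen C-propeptide, was at 208 ± 33.1 and 109 ± 21.8 CPM in the same order (0.93 ± 0.15, edgeR adjusted p 0.00101), and Adamts14, which removes the N-propeptide, at 17.5 ± 2.70 and 9.94 ± 2.09 CPM (0.82 ± 0.17, 0.00436). Pcolce2, an enhancer of that C-propeptide cleavage, fell, at 6.33 ± 1.83 CPM in KO-labelled and 41.5 ± 26.4 in wild-type libraries (-2.71 ± 0.58, edgeR adjusted p 0.00561). Matn2 (1.32 ± 0.08, edgeR adjusted p 4.19e-07), Ccn4 (1.39 ± 0.22, 0.000885) and Podn (1.75 ± 0.44, 0.0145) were the other genes that rose by the naming rule. Elastic fibre genes of the wider list fell in 5 of 12 cases (41.7%, beside 10.3% of all genes) and rose in none. Among those that fell were Emilin2, at 8.29 ± 3.01 CPM in KO-labelled and 87.5 ± 45.3 in wild-type libraries (-3.40 ± 0.48, edgeR adjusted p 0.000366), and Fbn2, a fibrillin of developing tissue, at 45.8 ± 13.4 and 149 ± 77.4 CPM (-1.70 ± 0.40, 0.01). Ctsk, which encodes the collagen-degrading cathepsin K, was at 3.61 ± 0.955 CPM in KO-labelled and 40.1 ± 41.5 in wild-type libraries (-3.47 ± 0.96, edgeR adjusted p 0.024), and the membrane protease gene Mmp16 at 10.3 ± 3.19 and 29 ± 3.01 CPM (-1.49 ± 0.18, 0.00012). Fmod, the gene of the collagen-binding proteoglycan fibromodulin, had a mean below the level required for naming and was picked out after its values were seen. It was at 0.105 ± 0.0563 CPM in KO-labelled and 2.61 ± 2.46 in wild-type libraries (-4.55, edgeR adjusted p 0.00614). Fmod passed the filter on low counts through the wild-type libraries, so its fall is not independent of that filter, and its p-value adds no support. Tgfbi, a TGF-beta-induced matrix protein gene, was at 17.1 ± 4.97 CPM in KO-labelled and 48.5 ± 9.43 in wild-type libraries (-1.5 ± 0.2, edgeR adjusted p 0.000256).

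The authors' deposited table of their own comparison called 4 members higher and 12 lower at an adjusted p below 0.05, which is 41% of the members beside 30.7% of all genes in that table. All 12 members called against the pooled lines here were called in the authors' deposited table with the same sign.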

How the data were processed

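RNA was sequenced with paired-end reads of 150 bases, per the labels' protocols. Per the design text and the submitters' processing notes, FastQC served for quality control and STAR 2.5.4a for alignment to GRCm39 and for counting on GENCODE genes. No source used here gives the annotation release or the strand setting. Raw read counts of each library were deposited and are the values analysed here; the table also has the authors' CPM (counts per 1000000) and log2 CPM, which were not used. A further block is the authors' own comparison, with a mean signal per gene, log2 fold changes, their errors and test statistics (score columns) and p-values, per the file headers; these enter only where the authors' deposited table is named. Its fold changes run KO over wild type, by their sign against the counts. The length column was not used, and lengths are those of the canonical transcripts of GENCODE vM39, which held 15153 of the 15156 named genes; 51 entries without a name, with 2.03 to 5.25% of a library's counts, were left out.

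CPM were recomputed from the counts of named genes, with library totals scaled by TMM factors. Genes passing filterByExpr were tested with edgeR 4.0.16 (R 4.3.3), with TMM factors, the quasi-likelihood test and Benjamini-Hochberg adjustment over all 14392 genes. The KO, WT clone2 and WT clone1 lines entered 1 fit for the comparisons between lines, and a second fit set KO against both wild-type lines. Standard errors (SE) were derived from the fold change and its F statistic. A call is an adjusted p below 0.05. Alternatives were DESeq2 1.42.0, its size factors, library size alone, no filter, a 2-fold minimum, fits of only the lines compared, limma-voom (limma 3.58.1) with the line as a random block, each library left out, the experiment 1 libraries of KO and WT clone1 left out, and the experiment number as a block. The code was tested on simulated data. Genes outside the module were named where called in the same direction in all 3 comparisons of KO with a mean of at least 5 CPM, up to 6 with the greatest change in each direction. The members and lists were chosen with earlier results of these data known.

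Libraries of the same experiment number deviated together between KO and WT clone1 (correlation over genes of 0.792, 0.339, 0.358 and 0.12 for experiments 1 to 4) and between WT clone2 and WT clone1 (0.341, 0.135, 0.22 and 0.18), all above 0.1, so the numbers were taken to pair those lines. Pairs of libraries with different experiment numbers ran from -0.594 to 0.467 between KO and WT clone1. Between WT clone2 and WT clone1 they ran from -0.343 to 0.25. The highest of each, KO library 4 and WT clone2 library 4 with WT clone1 library 2, exceeded the value of experiment 4 given above. Pairing by number is therefore not shown for experiment 4. The main fits carried no block for the experiment number. Counts, calls and verdicts of no call above therefore ignore this pairing unless the block is named. Between KO and WT clone2 the correlations for experiments 1 to 4 were 0.247, 0.3, 0.052 and 0.373, and the lines were not taken as paired. That choice rests on the experiment 3 value alone, and both lines were taken to pair with WT clone1. It is therefore a convention of the 0.1 limit and does not show that the lines were unpaired. The main calls against WT clone2 ignore any such pairing, and the calls gained with the block there are given below.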

Additional observations from a re-analysis of the deposited data

Results flagged for a closer look

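In 11 of 117 sets of 4 libraries (39 genes in 3 lines) 1 library stood far from the others of its line by Dixon's criterion, which chance meets in about 1 in 20 sets. Of these 10 belonged to experiment 3. In WT clone2 the experiment 3 library stood above the others in Col1a1 (9070 CPM), Bgn (3910), Efemp2 (377), Timp1 (363), Mmp2 (243), Tnn (116), Prelp (33.4) and Col5a3 (8.13 CPM). In WT clone1 it stood above them in Prelp (5.47 CPM) and Eln (1.49 CPM). The remaining case was Mfap5 in WT clone2 library 1 (0.166 CPM), where the line's 4 libraries held 10 counts in all.

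For 4 genes the KO-labelled line was above one wild-type line and below the other, both called. The call of Mfap5 against WT clone2 was tested only because the WT clone1 counts carried the gene past the filter. The difference between these comparisons, which is WT clone2 against WT clone1, was itself called by edgeR: the log2 fold change was 1.57 for Col6a3, 0.8 for Col16a1, -2.18 for Fbln2 and -5.23 for Mfap5. Each KO comparison shares the KO-labelled libraries.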

How the results depend on the processing

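Of 77 calls of single genes, none changed sign under any alternative run. DESeq2 size factors and no filter changed no call, and DESeq2 lost none. A 2-fold minimum left, against WT clone2, 441 genes higher and 668 lower with 2 members higher and 7 lower; against WT clone1, 228 and 770 with 0 and 5; between WT clone2 and WT clone1, 405 and 729 with 3 and 2; and against the pooled wild-type lines, 99 and 331 with 0 and 3. For the higher members at 0, edgeR's count at an unadjusted p below 0.05 with that minimum was 1 against WT clone1 and 0 against the pooled lines, and DESeq2 without the minimum called 7 and 3. The line as a random block in limma-voom gave 120 genes higher and 110 lower against the pooled lines, 0 and 0 members (2 and 6 at an unadjusted p below 0.05; DESeq2 called 3 and 12) and a matricellular median log2 fold change of 0.29. Without experiment 3, an alternative chosen after the data were seen, the pooled fit called 672 genes higher, 786 lower and 1 member higher; the proteoglycan medians were -2.73 (WT clone2), -3.35 (WT clone1) and -3.11 (pooled), and the protease medians -0.37, -0.53 and -0.63. Without the experiment 1 libraries of KO and WT clone1, 1 member was higher in the pooled fit and the protease medians were -0.68 (WT clone2) and -0.96 (WT clone1). Fitting only KO and WT clone1 gave a proteoglycan median of 0.05, since 3 of 4 members were then tested: Prelp, Eln and Tnn did not pass the filter in that fit, nor Eln and Mfap5 in the fit of KO and WT clone2. Members that passed only in an alternative included, with DESeq2, Lox (0.0322) and Tnn (0.00332) against WT clone1 and Timp1 (0.0245), Tnc (0.0173) and Tnn (0.00201) against the pooled lines; with library size alone, Fn1 (0.0313) and Lox (0.0424) against WT clone1 and Timp1 (0.0265) against the pooled lines; and without experiment 3, Fn1 (0.0422), Lox (0.032) and Tnn (0.0328) against WT clone1.

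With the experiment number as a block, members called higher and lower were 9 and 20 against WT clone2, beside 3242 and 3461 of all 14392 genes. They were 9 and 17 against WT clone1, beside 3042 and 3287 of all genes. Between the wild-type lines they were 14 and 13, beside 3659 and 3600, and against the pooled lines 3 and 10, beside 1165 and 1328. Between single lines the block also raised the counts over all genes, so the added member calls there are not particular to the module. The protease median against WT clone1 was -0.74. The pooled Timp2 call was lost under the block (edgeR adjusted p 0.0509); Timp1 (0.0192) and Sparc (0.0248) were gained there. For KO against WT clone2, where the numbers were not taken as pairs, the block gained Col5a2 (0.0146), Col5a3 (0.00457), Fbn1 (0.0262), Postn (0.00785), Sparc (0.0199) and Timp2 (0.0234).

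Leaving out each library in turn gave 4 to 8 members higher and 11 to 18 lower against WT clone2, 3 to 7 and 9 to 16 against WT clone1, 11 to 14 and 7 to 13 between the wild-type lines, and 1 to 4 and 6 to 11 against the pooled lines, where genes lower ranged from 964 (without KO library 2; without KO library 4 the count also moved by over 1.5 times) to 1573 and genes higher from 898 to 1426. Over all genes, 2377 to 2977 were higher and 2223 to 2772 lower against WT clone2. Against WT clone1 these were 1969 to 2659 and 2387 to 2859, and between the wild-type lines 2500 to 3308 and 2779 to 3462. Proteoglycan medians ranged from -3.09 to -2.63 (WT clone2), -3.72 to -3.23 (WT clone1) and -3.48 to -3.09 (pooled), and from 0.13 to 0.32 between the wild-type lines. Protease medians ranged from -0.66 to -0.34, -1.04 to -0.42, -0.89 to -0.68 and -0.2 to 0.23 in these comparisons, elastic fibre medians from -0.09 to 0.26, -0.57 to -0.17, -0.29 to -0.14 and -0.18 to 0.08, and matricellular medians from 0.01 to 0.28, 0.44 to 0.77, -0.26 to 0.21 and -0.67 to -0.42. The proteoglycan medians of KO comparisons use the fitted fold change of Prelp where it was tested, though Prelp had 0 counts in the KO-labelled libraries. With the bound for Prelp, the main median against WT clone1 was -2.72 instead of -3.53. These medians lie between 2 genes called lower and 2 genes not called, and describe no single gene. Depth limits Prelp, Eln, Mfap2, Mfap5, Dcn and Tnn, each with at most 50 counts over the 4 KO-labelled libraries. The cause of these changes was not tested.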
